A study of Homo sapiens with 6 samples.

Results

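Oxidative phosphorylation is carried out by 5 protein complexes of the inner mitochondrial membrane, and the nuclear genes for their subunits were followed here in a gefitinib-resistant lung cancer line and its parental line. The members are all probe sets annotated to a single gene whose symbol marks it as a subunit of complex I (NDUFA, NDUFB, NDUFC, NDUFS and NDUFV), complex II (SDHA to SDHD), complex III (UQCR), complex IV (COX4I to COX8) or complex V (ATP5). The rule used names only and no measured value. It took 164 of 54613 probe sets, which stand for 81 of 19776 genes. Complex I had 35 genes, complex II 3, complex III 6, complex IV 17 and complex V 18. The remaining 2 genes, DMAC2L (formerly ATP5S) and DMAC2 (formerly ATP5SL), entered by their older symbols, are not counted as subunits today and were kept apart.

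PC9/gef cells, which were obtained from PC9 by culture under rising concentrations of gefitinib, an inhibitor of the EGFR tyrosine kinase, were set against gefitinib-sensitive PC9 cells, a human lung adenocarcinoma line. Both lines grew in RPMI-1640 with fetal bovine serum, and RNA of 3 biological replicates of each line, as the labels call them, was hybridized to Affymetrix U133 Plus 2.0 arrays. There is 1 resistant line, so resistance cannot be told apart from other differences between these lines. Whether PC9/gef was harvested with gefitinib in the medium is not given in the sources used here.

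Values are on the log2 scale, so that a difference of 1 is a doubling, and all differences are PC9/gef minus PC9. Where a gene had several probe sets, the brightest by its mean over the 6 arrays stood for it. Genes at or below 2.65, the level under which 95% of 135 olfactory receptor probe sets lay, were taken as being at background level. The test was limma with Benjamini-Hochberg adjustment over all 19776 genes, and a gene was called higher or lower at an adjusted p under 0.05. The correlation between arrays was at least 0.999 within a line and at most 0.994 between lines. All 7 epithelial markers examined were above background in both lines. Of the lung adenocarcinoma markers 5 of 6 were at background, NKX2-1 and NAPSA among them, and so were 5 of 6 fibroblast and 4 of 5 leukocyte markers. The exceptions were SFTPB at 4.33 in PC9/gef and 4.31 in PC9, COL1A1 at 8.46 in PC9/gef and 7.94 in PC9, and LYZ at 7.69 in PC9/gef and 8.77 in PC9, and their part in the results was not tested.

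Complexes I and II take electrons from NADH and succinate and hand them to ubiquinone. Complex III passes them to cytochrome c and complex IV to oxygen. Complexes I, III and IV pump protons, and complex V, the ATP synthase, lets the protons flow back to make ATP. Most subunits are encoded in the nucleus and imported, while a core set comes from mitochondrial DNA, and complex II is wholly nuclear.

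The upstream sequence of these genes is often described through binding sites of NRF1, a factor named for its action on respiratory genes, and of ETS factors such as GABP. The 250 bases before the RefSeq start (GRCh38.p14) are shown for 4 members, chosen after their values were seen: NDUFB4 and COX8A, among the largest rises, UQCRC1, among the largest falls, and SDHA, the called gene of complex II. The windows lie at chr3:120596086-120596335 (plus strand), chr11:63974370-63974619 (plus strand), chr3:48609647-48609896 (minus strand) and chr5:218070-218319 (plus strand). Capitals mark matches to the NRF1 letters (GCGCA, any base, then GCGC) or the ETS letters CCGGAAG on either strand, and the NRF1 matches of both strands can overlap.
NDUFB4: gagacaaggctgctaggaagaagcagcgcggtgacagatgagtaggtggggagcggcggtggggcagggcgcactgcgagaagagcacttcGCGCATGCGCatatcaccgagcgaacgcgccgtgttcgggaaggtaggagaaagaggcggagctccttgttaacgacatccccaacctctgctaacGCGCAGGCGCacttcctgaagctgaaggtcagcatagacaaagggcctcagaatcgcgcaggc
COX8A: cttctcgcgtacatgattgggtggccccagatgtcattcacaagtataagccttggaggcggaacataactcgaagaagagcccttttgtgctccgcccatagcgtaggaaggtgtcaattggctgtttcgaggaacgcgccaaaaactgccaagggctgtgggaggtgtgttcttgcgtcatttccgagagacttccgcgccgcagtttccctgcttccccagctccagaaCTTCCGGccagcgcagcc
UQCRC1: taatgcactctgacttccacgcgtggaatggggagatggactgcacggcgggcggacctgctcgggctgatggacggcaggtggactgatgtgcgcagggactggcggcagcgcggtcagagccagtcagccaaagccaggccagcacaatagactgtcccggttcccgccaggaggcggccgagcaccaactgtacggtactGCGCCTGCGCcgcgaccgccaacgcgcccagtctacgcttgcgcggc
SDHA: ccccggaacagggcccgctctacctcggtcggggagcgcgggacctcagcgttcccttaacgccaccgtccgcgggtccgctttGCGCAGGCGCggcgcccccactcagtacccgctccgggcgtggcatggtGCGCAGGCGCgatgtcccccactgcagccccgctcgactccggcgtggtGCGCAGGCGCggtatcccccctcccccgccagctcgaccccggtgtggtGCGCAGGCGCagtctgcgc

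Of the 74 members above background, 65 matched a RefSeq promoter. The NRF1 letters stood in 13 of the 65 (20.0%), against 10.7% of the promoters of all genes above background and 5.53% of 27305 promoters in all. Among members called higher 6 of 40 held them, against 7 of 25 members above background that were not called higher. The ETS letters stood in 15 of 65 (23.1%), in 9 of 40 members called higher and 6 of 25 others, against 16.3% of promoters of genes above background. The cyclic AMP response element TGACGTCA stood in 0 of 40 members called higher and 4 of 25 others, against 2.94% of promoters of genes above background, a share at which few of 40 windows would hold it. A match of letters is a description of these windows and does not show a bound factor.

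Most subunit genes were slightly higher in PC9/gef. Of the 81 genes 45 were higher, 6 were lower and 30 did not pass, where the share of all genes called was 14.4% higher and 17.1% lower. Above background 45 members were higher and 5 lower of 74, where 23.8% of all genes above background were higher and 22.2% lower. No member gene, read from its brightest probe set, changed by more than 1.5-fold in either direction, while 14.0% of all genes above background did. Dimmer probe sets of DMAC2L, COX4I1 and ATP5IF1 were 1.69-, 1.61- and 1.504-fold higher, and that of COX4I1 did not pass. Among the 74 members above background the change was positive in 62 and negative in 12, and its median was 0.13, against -0.0098 over all 11955 genes above background. The median size of the change, without its sign, was 0.15 in members and 0.18 in all genes above background. The members' changes were thus small and mostly of 1 sign. In 54 genes every PC9/gef array lay above every PC9 array and in 7 every one lay below, while the arrays of the lines did not overlap in 55.7% of all genes.

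The subunit genes are among the brightest on the array, and bright genes were called more often. Of the members 71 had a mean above 10, a level set after the values were seen. Of these 60.6% were higher and 5.63% lower, against 34.5% higher and 30.8% lower over all 2680 genes with such a mean. The median change was 0.13 in these members and 0.016 in these genes. Within a line the median SD was 0.027 in members above background, 0.034 in genes with a mean above 10 and 0.064 in all genes above background, and in COX5A a change as small as 0.051 passed the test. Against a minimum change of 1.2-fold, 9 members were higher and 2 lower, where 4.94% and 4.72% of all genes were.

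**Figure D1:**
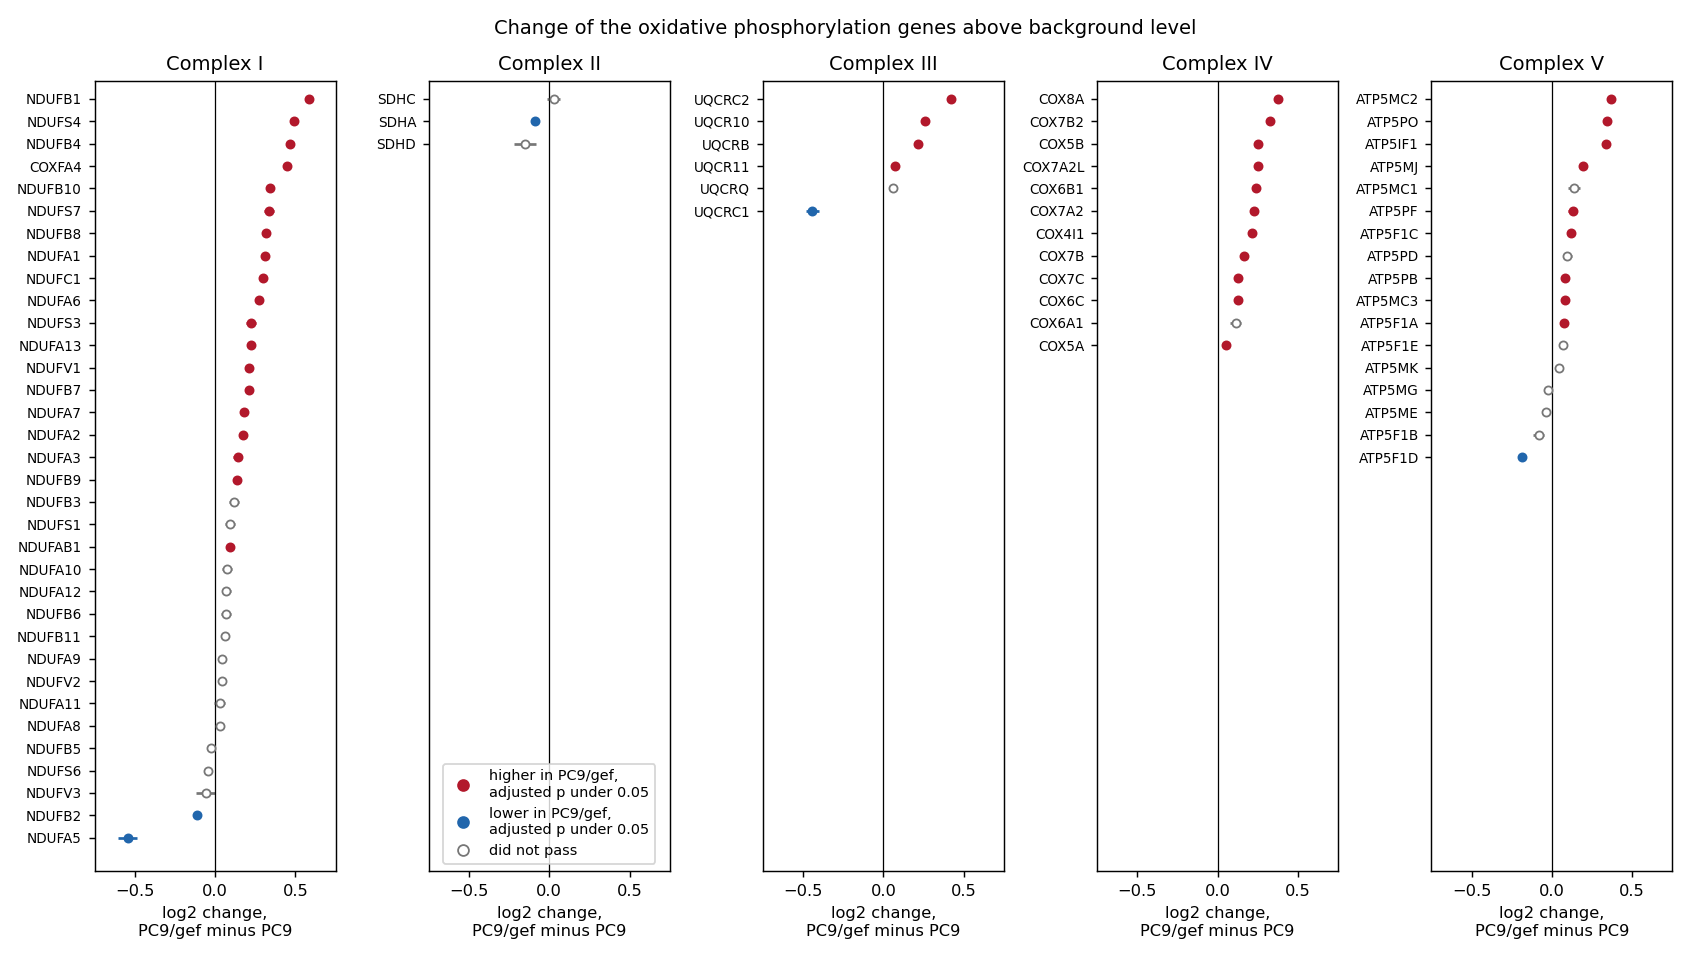
Change of every member above background, complex by complex, as the log2 difference PC9/gef minus PC9 with its standard error (bars, 3 arrays per line). Filled points passed limma at an adjusted p under 0.05: complex IV has 11 higher and 0 lower above background, complex II has 0 higher and 1 lower, and the falls of NDUFA5 and UQCRC1 stand apart from the rest.

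The mean over the 74 members was 12.54, 12.54 and 12.52 on the PC9/gef arrays, against 12.39, 12.39 and 12.39 on the PC9 arrays. The same order held in complex I, with 12.09, 12.09 and 12.07 in PC9/gef and 11.93, 11.93 and 11.93 in PC9, and in complex III, with 12.66, 12.69 and 12.66 in PC9/gef and 12.57, 12.56 and 12.58 in PC9. In complex IV the means were 13.61, 13.60 and 13.59 in PC9/gef and 13.40, 13.40 and 13.40 in PC9, and in complex V 13.18, 13.18 and 13.18 in PC9/gef and 13.09, 13.08 and 13.07 in PC9. Complex II was the exception, at 11.61, 11.59 and 11.61 in PC9/gef against 11.62, 11.68 and 11.72 in PC9. These means describe the arrays, and because fewer cells of a type and less RNA per cell cannot be told apart in bulk RNA, a difference in level is a difference in the share of the RNA hybridized.

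Complex I, the NADH dehydrogenase and the largest of the complexes, had 19 genes higher and 2 lower, and 14 did not pass. Above background the median change was 0.14. NDUFB1, an accessory subunit of the membrane arm, had the largest rise of all members, with 11.75, 11.72 and 11.75 in PC9/gef against 11.16, 11.17 and 11.15 in PC9, a change of 0.58 (SE 0.012, limma adjusted p = 7.6e-05). Its arrays did not overlap, but its only other probe set was at background, so the rise rests on a single probe set. NDUFS4, an accessory subunit of the peripheral arm whose loss causes Leigh syndrome, had 11.42, 11.42 and 11.45 in PC9/gef and 10.95, 10.96 and 10.91 in PC9 (0.49, SE 0.018, limma adjusted p = 0.00024). Here too the lowest PC9/gef array exceeded the highest PC9 array.

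NDUFB4, another accessory subunit of the membrane arm, had 13.97, 13.99 and 13.97 in PC9/gef and 13.49, 13.51 and 13.54 in PC9, without overlap (0.46, SE 0.014, limma adjusted p = 0.00015). COXFA4, better known as NDUFA4, is grouped here with complex I by name but is now regarded as a subunit of complex IV. It had 14.21, 14.22 and 14.23 in PC9/gef and 13.76, 13.80 and 13.77 in PC9 (0.45, SE 0.013, limma adjusted p = 0.00013). The lines were again fully separate, and its tissue isoform COXFA4L2 (NDUFA4L2), known as a hypoxia-induced gene, was at background on every array.

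The 15 further complex I genes that were higher rose by less. NDUFB10, NDUFS7, NDUFB8, NDUFA1 and NDUFC1 rose by 0.30 to 0.34, and NDUFA6, NDUFS3, NDUFA13, NDUFV1, NDUFB7, NDUFA7, NDUFA2, NDUFA3, NDUFB9 and NDUFAB1 by 0.094 to 0.27. Of the 5 catalytic core genes measured, 3 were higher (NDUFS7, NDUFS3 and NDUFV1) and 0 lower. NDUFS1 and NDUFV2 differed by 0.095 and 0.042 and did not pass. By position in the complex, 7 of 14 peripheral arm genes were higher and 1 lower, and 10 of 18 membrane arm genes were higher and 1 lower. The median changes of the arms were alike, at 0.14 in each.

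NDUFA5, an accessory subunit of the peripheral arm, went against the rest. It had 10.05, 9.92 and 10.04 in PC9/gef, against 10.47, 10.64 and 10.54 in PC9, a change of -0.54 (SE 0.061, limma adjusted p = 0.0043) or 1.46-fold lower. All PC9/gef arrays lay below all PC9 arrays, and the call held without each array in turn. The only other NDUFA5 probe set was at background, so this fall rests on a single probe set. NDUFB2, of the membrane arm, was lower by a small amount, with 12.58, 12.59 and 12.52 in PC9/gef and 12.66, 12.68 and 12.68 in PC9 (-0.11, SE 0.022, limma adjusted p = 0.025). The lines did not overlap, but this call was lost without PC9/gef replicate 1 (limma adjusted p = 0.062) and without PC9 replicate 1 (0.065), 2 (0.090) or 3 (0.084). The 13 genes above background that did not pass, NDUFB3, NDUFS1, NDUFA10, NDUFA12, NDUFB6, NDUFB11, NDUFA9, NDUFV2, NDUFA11, NDUFA8, NDUFB5, NDUFS6 and NDUFV3, differed by -0.059 to 0.12. A dimmer probe set of NDUFV3 was called lower, without overlap (-0.24, SE 0.043, limma adjusted p over probe sets = 0.029). NDUFB2 too had a dimmer probe set called lower (-0.46, limma adjusted p over probe sets = 0.038), while another at -0.048 did not pass.

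Complex II, succinate dehydrogenase, which also serves the citric acid cycle, had no gene called higher by its brightest probe set. SDHA, the flavoprotein that oxidizes succinate, had 11.67, 11.69 and 11.67 in PC9/gef and 11.79, 11.74 and 11.77 in PC9 (-0.092, SE 0.015, limma adjusted p = 0.014). The arrays did not overlap, although the difference was small and its call was lost without PC9/gef replicate 1 (limma adjusted p = 0.054), without PC9/gef replicate 3 (0.056) and without PC9 replicate 3 (0.056). SDHA was read by a single probe set, whose name ends in _x_at and which can therefore bind similar sequences. SDHC, a membrane anchor, had 11.20, 11.18 and 11.12 in PC9/gef and 11.07, 11.17 and 11.17 in PC9, with overlap (0.028, SE 0.040, limma adjusted p = 0.61). The 6 SDHC probe sets above background changed by -0.043 to 0.31, and none passed. Those at 0.31 and 0.26, both dim, had every PC9/gef array above every PC9 array. With the mean over the probe sets of a gene, SDHC was called higher. SDHD, the other anchor, had 11.96, 11.90 and 12.03 in PC9/gef and 12.00, 12.13 and 12.21 in PC9, also with overlap (-0.15, SE 0.069, limma adjusted p = 0.16). SDHB had no probe set annotated to it alone and was not analysed here.

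**Figure D2:**
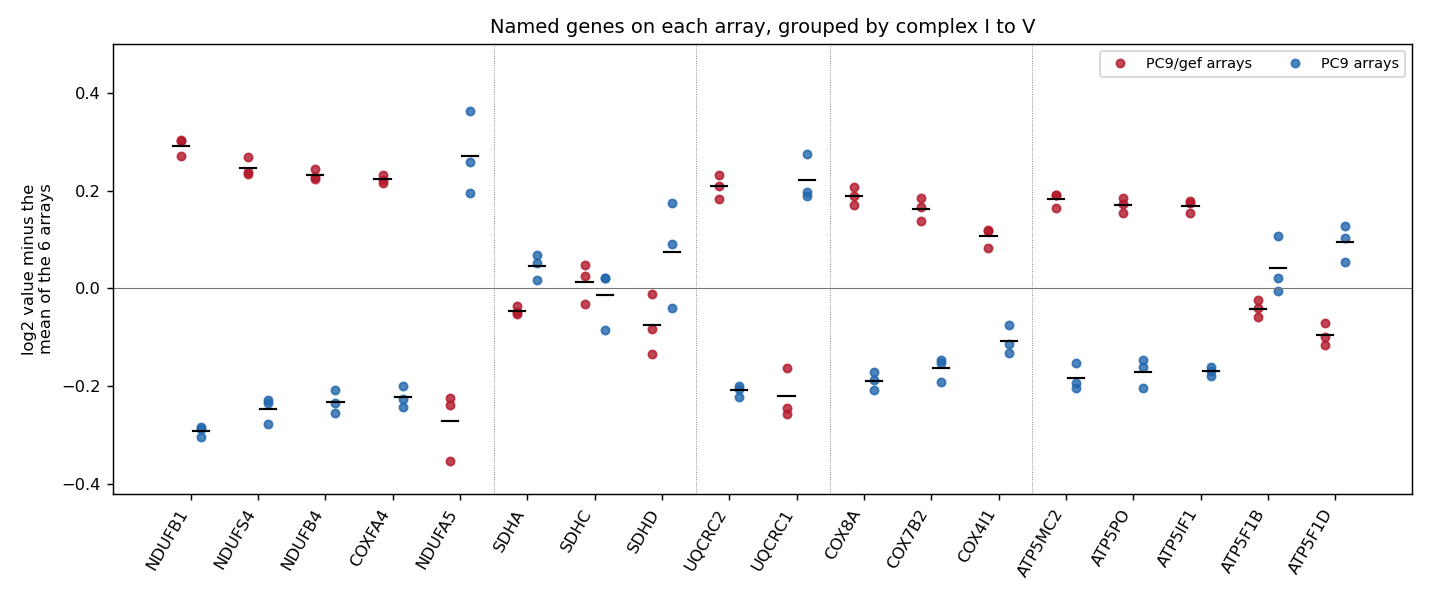
Log2 value of named members on each array, less the mean of that gene over the 6 arrays, with PC9/gef left of PC9 and a line at each mean of 3. The lines are separate in all genes shown except SDHC and SDHD of complex II, and NDUFA5, SDHA, UQCRC1, ATP5F1B and ATP5F1D have every PC9/gef array below every PC9 array.

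Complex III had 4 genes higher, 1 lower and 1 that did not pass, and its core proteins moved in opposite directions. UQCRC2, core protein 2, had 12.50, 12.52 and 12.54 in PC9/gef and 12.09, 12.11 and 12.11 in PC9, without overlap (0.42, SE 0.015, limma adjusted p = 0.00022). A second UQCRC2 probe set showed 11.98, 12.02 and 12.00 in PC9/gef and 11.50, 11.57 and 11.54 in PC9 (0.46, limma adjusted p over probe sets = 0.00068). UQCRC1, core protein 1, had 10.09, 10.18 and 10.08 in PC9/gef and 10.61, 10.53 and 10.54 in PC9, again without overlap (-0.44, SE 0.039, limma adjusted p = 0.0021) or 1.36-fold lower. In the assembled complex these 2 proteins sit side by side on the matrix face. UQCRC1 was read by a single probe set, so its fall, and with it the opposite directions, rests on that probe set.

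Among the smaller subunits UQCR10 had 13.61, 13.62 and 13.60 in PC9/gef and 13.36, 13.32 and 13.37 in PC9 (0.26, SE 0.015, limma adjusted p = 0.00063). UQCRB, a ubiquinone-binding subunit, had 13.91, 13.85 and 13.87 in PC9/gef and 13.64, 13.69 and 13.66 in PC9 (0.21, SE 0.021, limma adjusted p = 0.0028). Both were separate between the lines. Another UQCRB probe set was also called higher (0.20), while dimmer ones at 0.083 and -0.28 overlapped and did not pass. UQCR11 had 12.64, 12.68 and 12.65 in PC9/gef and 12.58, 12.58 and 12.60 in PC9 (0.072, SE 0.012, limma adjusted p = 0.016). Its call was lost without PC9/gef replicate 3 (limma adjusted p = 0.055) and without PC9 replicate 1 (0.064) or 2 (0.062), and its dimmer probe set showed -0.46 and did not pass. UQCRQ differed by 0.061 (limma adjusted p = 0.14). UQCRH was read only by a probe set shared with UQCRHL, and UQCRFS1 by none of its own, so neither was analysed here.

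Complex IV, cytochrome c oxidase, had 11 of the 12 genes above background higher and 0 lower, and a median change of 0.22. COX8A, the common isoform of the smallest subunit, had 13.67, 13.65 and 13.69 in PC9/gef and 13.27, 13.29 and 13.31 in PC9 (0.38, SE 0.014, limma adjusted p = 0.00025). COX7B2, whose main site in human tissue is the testis, had 11.96, 11.98 and 11.94 in PC9/gef and 11.65, 11.65 and 11.61 in PC9 (0.33, SE 0.019, limma adjusted p = 0.00065). Both had every PC9/gef array above every PC9 array. COX5B, a subunit on the matrix side, had 13.72, 13.73 and 13.66 in PC9/gef and 13.48, 13.44 and 13.43 in PC9 (0.25, SE 0.023, limma adjusted p = 0.0024).

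COX7A2L, which joins complexes III and IV into supercomplexes, had 12.47, 12.49 and 12.53 in PC9/gef and 12.28, 12.21 and 12.26 in PC9 (0.25, SE 0.024, limma adjusted p = 0.0028). COX4I1, the common isoform of the regulatory subunit 4, had 13.97, 14.00 and 14.00 in PC9/gef and 13.81, 13.75 and 13.77 in PC9 (0.21, SE 0.020, limma adjusted p = 0.0024). Neither overlapped between the lines. COX7A2 and COX6B1, common isoforms too, were also higher, COX7A2 with 13.94, 13.88 and 13.91 in PC9/gef and 13.65, 13.70 and 13.69 in PC9 (0.23, SE 0.023, limma adjusted p = 0.0030), and COX6B1 with 13.38, 13.40 and 13.36 in PC9/gef and 13.13, 13.18 and 13.11 in PC9 (0.24, SE 0.023, limma adjusted p = 0.0026). COX6A1 had 14.20, 14.13 and 14.08 in PC9/gef and 14.04, 14.04 and 14.00 in PC9, and did not pass (0.11, SE 0.035, limma adjusted p = 0.074) although its arrays were separate.

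COX7B, COX7C, COX6C and COX5A rose by 0.051 to 0.16. A dimmer COX5A probe set showed -0.22, with every PC9/gef array below every PC9 array, and did not pass (limma adjusted p over probe sets = 0.12), so the direction for COX5A depends on the probe set read. The call of COX5A was lost without PC9/gef replicate 3 (limma adjusted p = 0.067) and without PC9 replicate 1 (0.097), 2 (0.084) or 3 (0.092). The heart, muscle, lung and testis isoforms COX4I2, COX6A2, COX6B2, COX7A1 and COX8C were at background in both lines, between 2.23 and 2.43 by their means. COX8C was called lower at a difference of -0.0021 (limma adjusted p = 0.042), which at background level says nothing of the transcript. COX7B2 was thus the 1 isoform of the 6 with a restricted tissue pattern that was above background.

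Complex V, the ATP synthase, had 9 genes higher and 1 lower, with a median change of 0.084 above background. ATP5MC1, ATP5MC2 and ATP5MC3 encode the same mature c subunit of the proton-driven ring. ATP5MC2 had 12.88, 12.88 and 12.85 in PC9/gef and 12.48, 12.54 and 12.50 in PC9, without overlap (0.37, SE 0.018, limma adjusted p = 0.00042). ATP5MC1 had 10.39, 10.44 and 10.50 in PC9/gef and 10.34, 10.32 and 10.25 in PC9, also separate, and did not pass (0.14, SE 0.038, limma adjusted p = 0.057).

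ATP5MC3 was the 1 member whose probe sets passed in opposite directions. Its brightest probe set had 14.98, 14.98 and 14.98 in PC9/gef and 14.88, 14.91 and 14.90 in PC9 (0.081, SE 0.0077, limma adjusted p = 0.0026). A dimmer probe set had 8.19, 8.19 and 8.26 in PC9/gef and 8.73, 8.80 and 8.72 in PC9 (-0.54, SE 0.033, limma adjusted p over probe sets = 0.0014). Another, at 14.76, 14.74 and 14.74 in PC9/gef and 14.71, 14.67 and 14.71 in PC9, did not pass. The direction for this gene therefore depends on the probe set read.

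ATP5PO, the oligomycin sensitivity protein at the top of the peripheral stalk, had 13.01, 13.04 and 13.03 in PC9/gef and 12.71, 12.65 and 12.69 in PC9, without overlap (0.34, SE 0.019, limma adjusted p = 0.00058). A dimmer ATP5PO probe set above background showed 0.064, with overlap, and did not pass (limma adjusted p over probe sets = 0.45). ATP5IF1, the inhibitor that blocks ATP hydrolysis by the enzyme, had 11.15, 11.17 and 11.17 in PC9/gef and 10.83, 10.83 and 10.81 in PC9 (0.34, SE 0.0091, limma adjusted p = 0.00013). All 3 of its probe sets were higher, by 0.22 to 0.59. ATP5MJ, a small membrane subunit, had 13.98, 14.00 and 13.97 in PC9/gef and 13.79, 13.78 and 13.79 in PC9 (0.20, SE 0.0097, limma adjusted p = 0.00046). It was the 1 of 4 small membrane subunits above background that passed.

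ATP5F1D, the delta subunit of the rotating central stalk, was lower, with 9.32, 9.35 and 9.30 in PC9/gef and 9.54, 9.52 and 9.47 in PC9, without overlap (-0.19, SE 0.024, limma adjusted p = 0.0068). In the F1 head and stalk 2 of 5 genes were higher, ATP5F1A by 0.074 and ATP5F1C by 0.12, and 1 was lower. Of the 4 ATP5F1C probe sets above background only the brightest was called, and those at 0.078, 0.066 and -0.020 did not pass. ATP5F1B, the catalytic beta subunit, had 12.99, 13.02 and 13.01 in PC9/gef and 13.07, 13.04 and 13.15 in PC9 and did not pass (-0.082, SE 0.034, limma adjusted p = 0.13). Of the 4 peripheral stalk genes 3 were higher, ATP5PO with ATP5PF at 0.13 and ATP5PB at 0.084. ATP5PD, ATP5F1E, ATP5MK, ATP5MG and ATP5ME differed by -0.038 to 0.096 and did not pass, and the probe set of ATP5MF was at background. ATP5MF had only this 1 probe set of its own. Another 2, annotated to ATP5MF-PTCD1 together with other genes, were left out, so absence of the ATP5MF transcript is not shown. A dimmer probe set of ATP5MG was called higher, with 10.42, 10.41 and 10.39 in PC9/gef and 10.09, 10.16 and 10.14 in PC9 (0.28, limma adjusted p over probe sets = 0.0023), while its 3 brighter ones did not pass.

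Several of these small changes in complex V were lost when an array was left out. For ATP5PF this held without any array but PC9/gef replicate 2 (limma adjusted p between 0.077 and 0.097). For ATP5PB it held without PC9/gef replicate 3 (0.081) and without PC9 replicate 1 (0.11), 2 (0.079) or 3 (0.10), and for ATP5F1A without PC9/gef replicate 3 (0.061) and without PC9 replicate 2 (0.056) or 3 (0.064). In complex I the same was seen for NDUFAB1 without PC9/gef replicate 3 (0.072) and PC9 replicates 2 (0.072) or 3 (0.068), and for NDUFA3 without any array but PC9/gef replicate 3 (0.069 to 0.10). Of the 51 calls 40 held in all 6 of these fits.

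DMAC2L and DMAC2, the genes kept apart, were both higher. DMAC2L had 8.18, 8.25 and 8.29 in PC9/gef and 7.56, 7.77 and 7.74 in PC9, without overlap (0.55, SE 0.069, limma adjusted p = 0.0063). DMAC2, an assembly protein of complex I, rose by 0.18 (SE 0.036, limma adjusted p = 0.025), a call lost without PC9/gef replicates 1 (0.079) or 3 (0.088) and PC9 replicates 1 (0.090) or 3 (0.070).

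Over the 164 probe sets, 59 were higher, 9 were lower and 96 did not pass, where 7.61% of all probe sets were higher and 8.99% lower. Of the 131 above background 59 were higher and 8 lower, where 16.4% and 16.5% of all probe sets above background were. In 32 genes several probe sets were above background, and in 21 of these all had the same sign. Many members were read from probe sets whose names end in _s_at or _x_at, which can bind transcripts of a gene family or similar sequences. Of the 43 genes read in this way 28 were higher and 3 lower, and of the 31 others above background 17 were higher and 2 lower. Cross-hybridization with processed pseudogenes, which are common for these genes, was not tested.

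**Figure D3:**
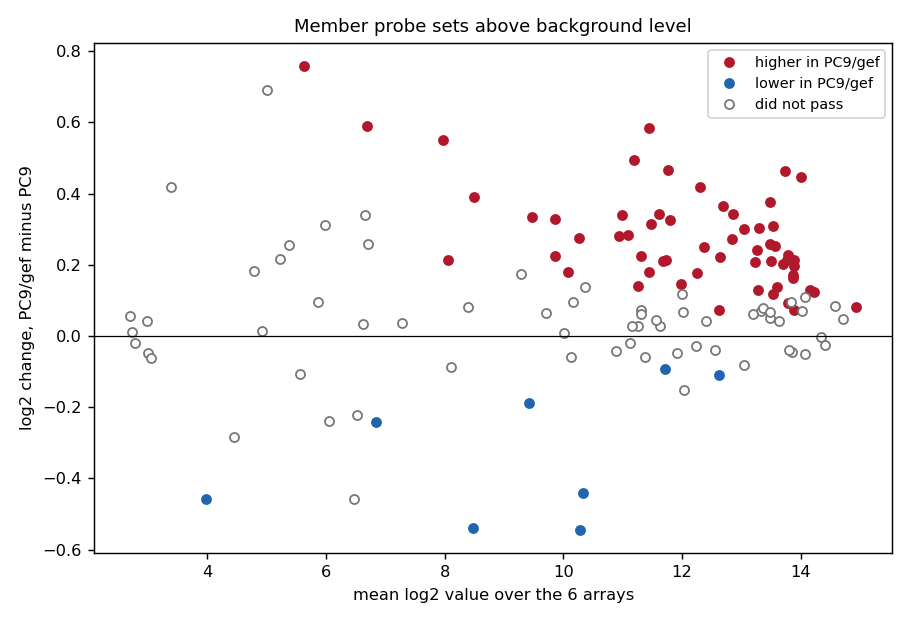
Each of the 131 member probe sets above background, by its mean log2 value over the 6 arrays (horizontal) and its log2 change, PC9/gef minus PC9 (vertical). Probe sets called higher (59) lie mostly at means above 10, and the 8 called lower are spread over the range.

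The chromosomal position of the members was used by no rule. For each member above background, up to 10 measured genes on either side that were also above background and no members were taken, from the RefSeq gene order. Across the 74 members the change correlated with the median change of these neighbours at r = 0.62, given as a description since genes share the arrays and neighbours can overlap. NDUFA5 and UQCRC1, the members that fell furthest, lay where their neighbours were also lower. Around NDUFA5 on chromosome 7, 16 of 20 neighbours were lower and 1 was higher, with a median of -0.62, and around UQCRC1 on chromosome 3, 15 of 20 were lower and 0 higher, with a median of -0.49. Around ATP5F1D on chromosome 19, 7 of 20 were lower and 2 higher (median -0.062), and around NDUFB2 on chromosome 7, 6 were lower and 7 higher (median -0.021). Around SDHD and ATP5MG on chromosome 11, neither of which passed, 12 of 20 were lower in each case (medians -0.24 and -0.30).

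Rises were seen both with and without such neighbours. Around NDUFB4 on chromosome 3, 12 of 20 neighbours were higher (median 0.42), and around NDUFS3 on chromosome 11, 13 of 20 (median 0.29). The neighbours of NDUFB1, the member with the largest rise, had a median of 0.012, and those of NDUFS7 on chromosome 19 had -0.12 where NDUFS7 itself rose by 0.34. Over all members the median of the neighbours' medians was 0.0073 and 33 of the 74 were below 0, where 12 of the members' own changes were. The part of position in these changes was not tested.

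**Figure D4:**
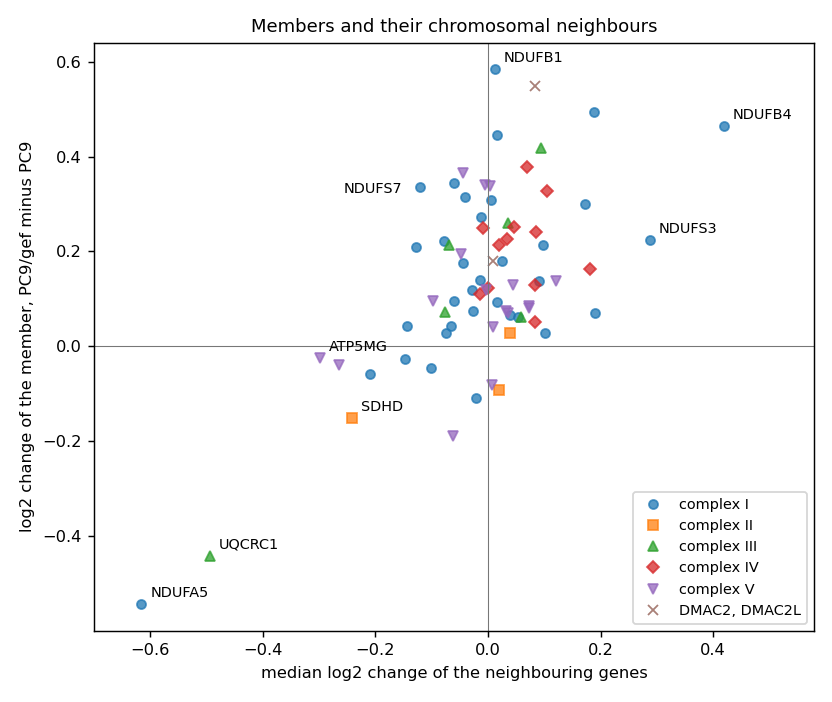
Log2 change of each of the 74 members above background (vertical) against the median log2 change of up to 20 neighbouring measured genes (horizontal), both PC9/gef minus PC9. NDUFA5 and UQCRC1 lie at the lower left with their neighbours, NDUFB4 at the upper right, and most members lie above 0 whether their neighbours do or not.

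Other lists of mitochondrial genes gave other counts, which were not tested against those of the members. For comparison, 14.4% of all genes were higher and 17.1% lower, and 23.8% and 22.2% of all genes above background. Of 48 assembly factors, which build the complexes without staying in them, 8 were higher and 15 lower (16.7% and 31.25%), with a median of -0.021. NDUFAF3, an assembly factor of complex I, had the largest change, at 8.75, 8.78 and 8.77 in PC9/gef against 9.60, 9.59 and 9.58 in PC9 (-0.82, limma adjusted p = 3.2e-05). FOXRED1 and TMEM126B, both for complex I, fell by 0.52 and 0.52, while COA5 of complex IV rose by 0.53 and SDHAF2, which adds the flavin to SDHA, by 0.50, opposite in sign to SDHA itself.

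Of 28 genes of mitochondrial biogenesis and mitochondrial DNA expression 0 were higher and 11 (39.3%) lower. Of these 11, 10 were above background, and the median above background was -0.13. POLRMT, the mitochondrial RNA polymerase, had 7.28, 7.12 and 7.08 in PC9/gef and 7.56, 7.66 and 7.42 in PC9 (-0.39, limma adjusted p = 0.037). MTERF1, TOP1MT and PPRC1 fell by 0.38, 0.34 and 0.34. NRF1 had 5.63, 5.96 and 5.74 in PC9/gef and 6.12, 6.11 and 6.11 in PC9 and did not pass (-0.34, limma adjusted p = 0.055), and TFAM, the packaging factor of mitochondrial DNA, differed by 0.050 (limma adjusted p = 0.28). PPARGC1A was at background in both lines. The number lower in this list was 6 without PC9/gef replicate 3 and 7 without PC9 replicate 2.

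Of 32 genes of the citric acid cycle and of electron carriers 8 were higher and 8 lower. These shares, 25% each, were near those of all genes above background, 23.8% and 22.2%. The number higher was 5 without PC9/gef replicate 1 or 3. CYCS, which is cytochrome c, and CYC1, a subunit of complex III whose symbol the name rule did not take, both rose by 0.11. SUCLG2, PDHB and DLD fell by 0.72, 0.52 and 0.42, while PDHX rose by 0.40. Of 72 mitochondrial ribosomal protein genes 23 were higher and 23 lower (31.9% each), and 15 were lower without PC9 replicate 1. MRPS25 and MRPS17 fell by 0.84 and 0.44, and MRPS31 and MRPS22 rose by 0.57 and 0.46. Of the 13 protein genes of mitochondrial DNA 7 were measured, of which 1, ND2, was lower, at 14.69, 14.66 and 14.69 in PC9/gef against 14.83, 14.88 and 14.85 in PC9 (-0.17, limma adjusted p = 0.0034), and 0 were higher. COX1 was at 15.72, the highest value of the whole table, on 2 PC9/gef arrays and COX2 on 1 PC9/gef array and all 3 PC9 arrays, so a difference in these genes could not be measured in full.

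**Figure D5:**
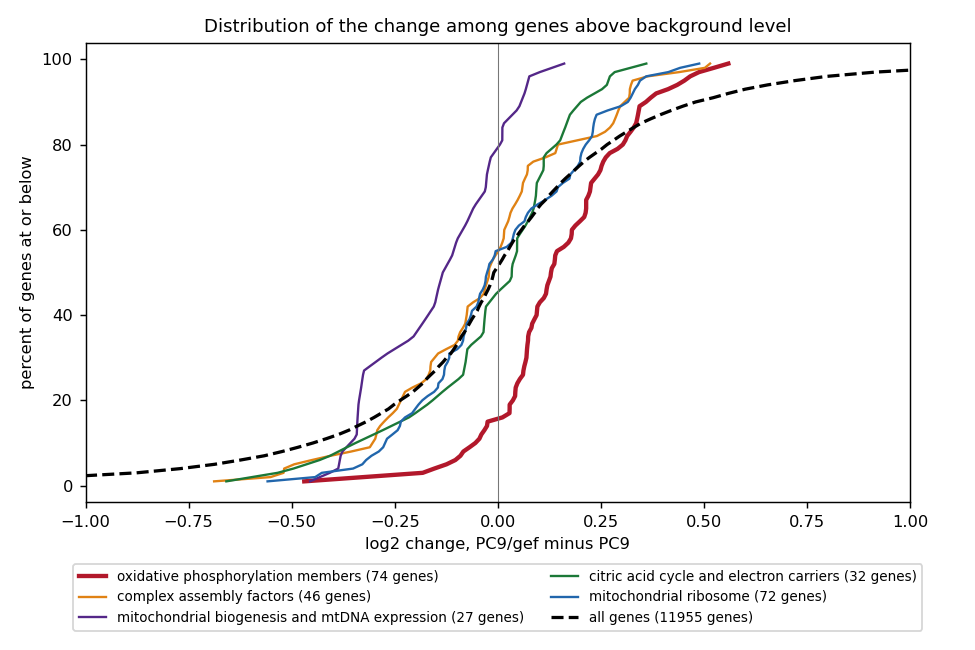
Percent of genes (vertical) at or below each log2 change, PC9/gef minus PC9 (horizontal), for the members, 4 lists of other mitochondrial genes and all genes, each above background. The members' curve lies to the right over most of its course, with a median of 0.13, and the biogenesis list to the left, with a median of -0.13.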

How the data were processed

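RNA of 3 PC9/gef and 3 PC9 samples was measured on arrays. The authors background-corrected, normalized and summarized the intensities, and the deposited values are on the log2 scale; the notes name RMA, and the methods GC-RMA, without a version. Sorted values are identical on all 6 arrays, from 1.65 to 15.72, so they were used as deposited, and arrays cannot differ in overall level. Control probe sets (62 of 54675) were dropped, and 41092 of the rest had an annotation to 1 gene. P-values came from limma 3.58.1 in R 4.3.3 (lmFit, eBayes, trend and robust off) and measure the spread between the labelled replicates. Depth has no meaning for arrays, and the number of arrays limits the precision. Motifs were counted in the RefSeq promoters (GRCh38.p14), and figures drawn with matplotlib 3.10.9.

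Members and lists were chosen with earlier results of these data known. Values on every array are given for up to 4 rises and 4 falls per complex, the SDH genes, isoforms with a common form, and probe sets that pass in opposite directions. ATP5F1B, NRF1, TFAM, CYCS, CYC1 and the genes named by their neighbours were chosen after their values were seen. NDUFC2, NDUFS5 and NDUFS8 were read only by probe sets shared with other genes and were not analysed here. The alternatives tried were other normalizations, moderation, filters, tests, probe set rules, a replicate block and leaving out arrays.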

Additional observations from a re-analysis of the deposited data

How the results depend on the processing

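The sorted values are identical on all arrays, so quantile normalization and median centring return the same values and test nothing here. The methods' t-test is stated for group means of continuous variables, without naming the arrays. At its unadjusted threshold it called 52 members higher and 6 lower (16.9% and 31.3% of all genes). After Benjamini-Hochberg adjustment it gave the same calls as limma for the 81 genes. Trend and robust moderation and the filters on dim probe sets leave each change as it is, so they cannot turn a direction. Trend moderation added 4 calls and robust moderation lost 1. Among the members kept, the filter at background added 2 calls and lost 4, and the filter at the median added 3 and lost 1. A minimum change, the choice of probe sets and the block moved the most calls.

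Leaving out each array in turn gave 38 to 44 genes higher (45 with all arrays), the 38 without PC9 replicate 2 or 3. It gave 3 to 6 lower (6), the 3 without PC9/gef replicate 1. The ranges for higher and lower were 17 to 20 and 1 to 2 in complex I, 0 to 0 and 0 to 1 in complex II, 3 to 4 and 1 to 1 in complex III, 10 to 11 and 0 to 1 in complex IV, and 6 to 9 and 1 to 2 in complex V, where the 2 came without PC9 replicate 3. They were 8 to 9 and 12 to 15 for assembly factors, 0 to 0 and 6 to 11 for biogenesis, 5 to 9 and 6 to 7 for the citric acid cycle and carriers, 20 to 21 and 15 to 20 for the mitochondrial ribosome, and 49 to 56 and 4 to 12 for member probe sets, where the lowest came without PC9 replicate 1 or 2.

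Against a minimum change of 1.2-fold, higher and lower calls were 9 and 2 over all members, 5 and 1 in complex I, 0 lower in complex II, 1 higher in complex III, 1 and 0 in complex IV, 2 and 0 in complex V, 2 and 2 for assembly factors, 0 lower for biogenesis, 0 and 3 for the citric acid cycle and carriers, 4 and 3 for the mitochondrial ribosome, and 10 and 1 for probe sets.

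Without probe sets named _x_at or _s_at, which leaves fewer genes and often a dimmer probe set, 24 members were higher: 9 in complex I, 2 in complex III, 7 in complex IV and 4 in complex V. Complexes II and V then had 0 lower. The counts were 5 higher for assembly factors, 6 lower for biogenesis, 5 lower for the citric acid cycle and carriers, 10 higher and 14 lower for the mitochondrial ribosome, and 23 higher and 5 lower for probe sets. The sign turned for UQCR11 (-0.46), COX5A (-0.22), ATP5F1C (-0.020), ATP5PB (-0.11) and ATP5MG (0.28). It also turned for NDUFB1 (-0.0016), NDUFS7 (-0.00081), NDUFB7 (-0.0054), ATP5MC2 (-0.00033) and ATP5F1A (-0.00033), whose remaining probe sets were at background, where the sign says nothing of the transcript. With the mean over the probe sets of a gene it turned for UQCR11 (-0.19), COX5A (-0.085), ATP5PB (-0.012), ATP5MC3 (-0.14) and ATP5MG (0.049), complex II had 1 higher, complex III 2 higher, complex IV 0 lower and complex V 2 lower. The 1 lower call of complex IV, COX8C at background, was also 0 with robust moderation, with either filter on dim probe sets and with the block.

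The replicate numbers did not pair the arrays: the correlation of deviations between same-numbered arrays was -0.025, 0.016 and 0.047. With the replicate number as a block 2 members were lower, 0 in complex I and 0 in complex II, 2 were higher in complex III and 7 in complex IV, 8 assembly factors and 6 biogenesis genes were lower, 5 genes of the citric acid cycle and carriers and 15 of the mitochondrial ribosome were higher, and 30 member probe sets were higher and 1 lower. Of 51 calls 31 held.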
